A study of Mus musculus with 40 samples.

Results

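The subject is the last step of a dose series, from 10 to 30 µg/kg of the dioxin TCDD, in mouse liver. The 5 libraries labelled 30 were compared with the 5 labelled 10, chosen by their dose labels from 40 libraries in all, to find which transcripts changed at this step and not at the steps below it. All mice were male C57BL/6, a common inbred strain with no engineered allele, and each library was made from the liver RNA of 1 mouse. Every group was gavaged every 4 days for 28 days, 7 administrations in all, starting at 30 days of age and ending at 58 days. The 10 and 30 µg/kg groups received TCDD in sesame oil, the vehicle group received the oil alone, and the groups at 0.03, 0.1, 0.3, 1 and 3 µg/kg, also with 5 mice each, gave the lower dose steps.

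TCDD, or 2,3,7,8-tetrachlorodibenzo-p-dioxin, is a ligand of the aryl hydrocarbon receptor. Once bound, this receptor, written AhR below, moves to the nucleus, pairs with ARNT and attaches to dioxin response elements, whose core is GCGTG. Cytochrome P450 genes such as Cyp1a1 are its best known targets. Sustained exposure of mouse liver is known for fat accumulation, inflammation and fibrosis. Cholesterol synthesis, the process that the top dose step touched most evenly among the lists examined, is carried out by a chain of enzymes from acetyl-CoA to cholesterol, and its genes are switched on together by SREBP2 when cell sterol levels are low.

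The libraries at 10 µg/kg held 18.0 ± 1.86 M gene counts (SD, n = 5, M for 1e6 counts) and those at 30 µg/kg 18.5 ± 0.955 M (SD, n = 5), within the range of 15.5 to 21.0 M over all 40, so the doses did not differ in depth by more than the spread between replicates. The labelled tissue could be seen in the hepatocyte list, 18 plasma protein genes whose summed level was 106164 to 174197 CPM (gene counts in each 1e6 counts of the library) at 10 µg/kg and 47474 to 109005 CPM at 30 µg/kg. Here and below, CPM are on the TMM scale, and they are compared between libraries, not between genes. A gene was called where edgeR's quasi-likelihood test gave a Benjamini-Hochberg adjusted p under 0.05 over all genes tested and the groups differed by 1.5-fold or more.

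The top step was the largest step of the series by number of genes. Of 15373 genes tested, 3249 were called between 10 and 30 µg/kg (21.1%), 1626 of them higher at 30 (10.6%) and 1623 lower (10.6%). The step from 3 to 10 µg/kg held 1041 calls (6.77%), with 681 higher (4.43%) and 360 lower (2.34%). The 5 steps below that held 3 (0.0195%), 6 (0.039%), 7 (0.0455%), 37 (0.241%) and 9 (0.0585%) calls in order of rising dose, and 35 of the 37 were rises (0.228%) and 2 were falls (0.013%). In the step from 10 to 30 µg/kg, the 5 libraries of one dose lay entirely above or below the 5 of the other in 1825 genes (11.9%), 823 above (5.35%) and 1002 below (6.52%). Of these, 585 were called higher (3.81% of genes tested) and 753 called lower (4.9%). Scaled by total counts alone, without TMM, the median difference over all genes tested moved from 0.02 to 0.30 on the log2 scale, and 3163 genes were called higher and 971 lower. The even split between rises and falls therefore did not hold under total counts, while scaling by RLE size factors gave 1682 higher and 1589 lower. Differences of single genes below are on the TMM scale, and list counts that moved by over 1.5 times under total counts are given with both. No called gene of the lists below changed sign under total counts.

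**Figure D1:**
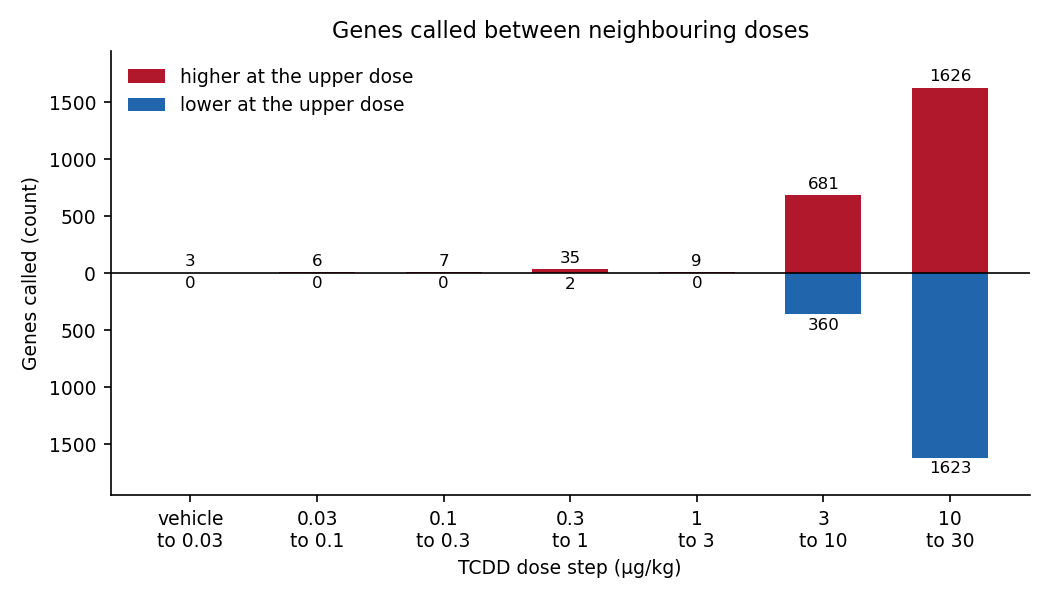
Number of genes called (edgeR, adjusted p under 0.05 and fold of at least 1.5) between each pair of neighbouring doses, in µg/kg on the horizontal axis, with genes higher at the upper dose drawn upward and genes lower at the upper dose drawn downward. The last step holds 1626 rises and 1623 falls, against 681 and 360 one step lower and at most 35 and 2 in the steps below that.

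A call between 10 and 30 µg/kg does not by itself set the top step apart, since many genes were already changing. At 10 µg/kg, 3347 genes (21.8%) were called against vehicle, 2097 higher (13.6%) and 1250 lower (8.13%). The difference between steps was therefore tested directly, as the change from 10 to 30 minus the change from 3 to 10 µg/kg, and it was past an adjusted p of 0.05 in 576 genes (3.75%), upward in 155 and downward in 421. Genes that were called at the top step, had this difference in the same direction, and were called neither at 10 µg/kg against vehicle nor in any lower step are referred to as top-step genes. There were 300 of them (1.95% of genes tested), of which 73 rose (0.475%) and 227 fell (1.48%). The 10 µg/kg libraries enter both steps of this difference. The status is easily lost: 277 of the 300 stayed called between 10 and 30 µg/kg whichever of the 10 libraries was left out, but 52 stayed top-step genes throughout, and their number was 95 without 10 µg/kg replicate 4 and 882 without 30 µg/kg replicate 1. Of the genes described below, Idi1, Lss, Cyp51, Msmo1, Nsdhl, Dhcr7, Srebf2, Ppp1r3b, Acss2, Hacd3, Nln and Cyp2c38 kept it through all 10. Alb, F2, Pcca, Slc27a5, Nr1i3, Ass1, Asl, Mup20, Cyp2d9, Ehhadh, Ctsd, Anxa5, Gclc and Gbe1 did not, and each was lost without 10 µg/kg replicate 5, among others in all but Gclc and Gbe1.

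One library at each dose stood apart from the rest. Over the called genes, each library was placed between the mean of the other libraries at 10 µg/kg (0%) and the mean of the other libraries at 30 µg/kg (100%), with the calls made without it. The library of 30 µg/kg replicate 1 lay at 23.8% of the step, while replicates 2, 3, 4 and 5 lay at 131%, 129%, 110% and 88.5%. The library of 10 µg/kg replicate 3 lay at 29.0%, and the other 4 at that dose between -5.58% and 2.25%. Thus 30 µg/kg replicate 1 was the 30 µg/kg library nearest to the 10 µg/kg group in 2656 of the 3249 called genes (81.7%) and in 282 of the 300 top-step genes (94%). Cyp1b1, an AhR target, was 1314 CPM in this library and between 442 and 964 CPM at 10 µg/kg. Even so, this was the 30 µg/kg library nearest to the 10 µg/kg group in 3 of the 4 called AhR targets, Cyp1b1 among them. Why this library stood apart was not tested. Without this library, 4116 genes were called, 2012 higher and 2104 lower.

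**Figure D2:**
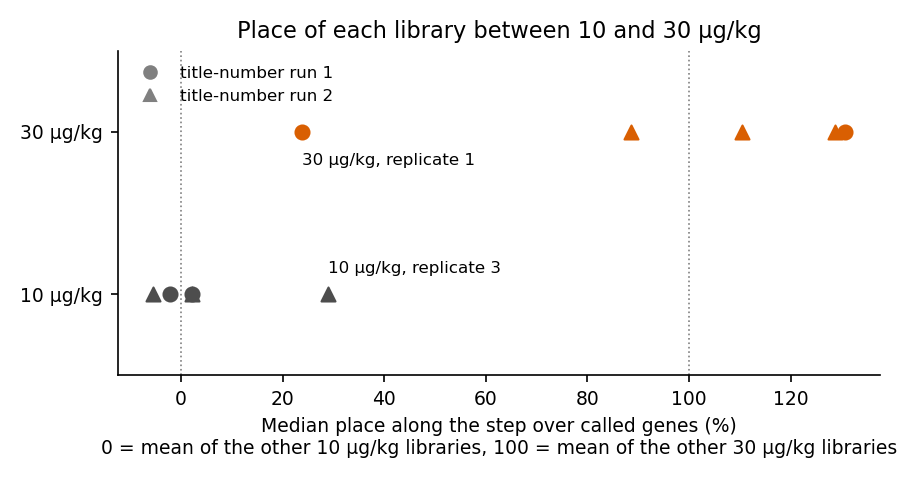
Place of each of the 10 libraries along the step, as the median over called genes of the percentage from the mean of the other 10 µg/kg libraries to the mean of the other 30 µg/kg libraries, with circles and triangles for the lower and higher run of title numbers. At 30 µg/kg, replicate 1 lies at 23.8% and the others at 88.5% or above, and at 10 µg/kg, replicate 3 lies at 29.0% and the others at 2.25% or below.

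The most even change was in cholesterol synthesis and uptake, where 18 of 18 genes fell (10.6% of all genes tested were called lower) and 10 of the 18 were top-step genes. The promoters of 4 of them are shown because the enzymes they drive stand at different points of the pathway and their expression fell together: Hmgcs1 makes HMG-CoA, Idi1 isomerizes isopentenyl pyrophosphate, Cyp51 removes a methyl group from lanosterol, and Nsdhl acts on the sterol intermediates that follow. Each is the 250 bases before the annotated transcription start, given 5′ to 3′ on the gene's own strand, from RefSeq on build GRCm38.p6. Hmgcs1 is at chr13:119690101-119690350 (plus strand), Idi1 at chr13:8885356-8885605 (plus strand), Cyp51 at chr5:4104698-4104947 (minus strand) and Nsdhl at chrX:72918271-72918520 (plus strand). Capitals mark CCAAT boxes on either strand, where ATTGG is the same box read on the other strand, and in Hmgcs1 also the sterol regulatory element TCACNCCAC.
Hmgcs1: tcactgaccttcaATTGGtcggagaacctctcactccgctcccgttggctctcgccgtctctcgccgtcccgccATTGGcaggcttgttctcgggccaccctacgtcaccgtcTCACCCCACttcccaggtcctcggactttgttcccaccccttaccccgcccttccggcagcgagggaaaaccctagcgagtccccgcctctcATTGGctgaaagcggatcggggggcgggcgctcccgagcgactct
Idi1: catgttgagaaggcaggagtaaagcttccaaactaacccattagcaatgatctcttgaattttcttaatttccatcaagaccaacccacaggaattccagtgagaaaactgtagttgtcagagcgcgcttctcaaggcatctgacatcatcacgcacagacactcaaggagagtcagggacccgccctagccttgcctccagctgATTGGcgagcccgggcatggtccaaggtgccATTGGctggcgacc
Cyp51: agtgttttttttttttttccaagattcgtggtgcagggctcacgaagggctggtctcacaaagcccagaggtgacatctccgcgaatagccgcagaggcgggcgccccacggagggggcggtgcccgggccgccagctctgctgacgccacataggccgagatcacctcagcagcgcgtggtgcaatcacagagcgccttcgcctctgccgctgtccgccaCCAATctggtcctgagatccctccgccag
Nsdhl: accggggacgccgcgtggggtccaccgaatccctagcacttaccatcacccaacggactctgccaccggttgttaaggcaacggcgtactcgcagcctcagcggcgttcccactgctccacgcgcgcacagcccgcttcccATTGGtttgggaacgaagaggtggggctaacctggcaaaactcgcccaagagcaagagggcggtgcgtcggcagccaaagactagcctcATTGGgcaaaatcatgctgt

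The CCAAT box is a site for the factor NF-Y, and the sterol regulatory element is bound by SREBP. Of the 18 cholesterol genes, 11 had promoters in the table, in 14 windows. A CCAAT box was in at least 1 window of 11 of the 11 genes, against 40.2% of the 11101 tested genes with a promoter, and in 78.6% of their windows against 35.0% of all windows. TCACNCCAC was in 7.14% of the windows (1 of 14, the Hmgcs1 window printed above, 137 bases before the start) against 1.08% of all windows. The dioxin response element core GCGTG was in 50.0% of the cholesterol windows, in 46.8% of the windows of top-step genes that rose, in 32.9% of those of top-step genes that fell, and in 41.8% of all windows. All letters were searched on both strands, none of the matches overlapped in the windows printed, CCAAT and TCACNCCAC were chosen after the values were seen, and the matches are a description of the letters, not of binding.

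At the head of the pathway, Hmgcs1 (HMG-CoA synthase) was 356, 292, 184, 182 and 181 CPM at 10 µg/kg, in the order of replicates 1 to 5, and 216, 42.7, 39.0, 49.0 and 38.3 CPM at 30 µg/kg. Replicates 2 to 5 at 30 µg/kg were far below every 10 µg/kg library and replicate 1 was among them, so the groups overlapped by 1 library. The fitted change was a 3.11-fold repression, -1.64 on the log2 scale (SE 0.38, adjusted p = 9.00e-04).

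Idi1 was 97.3, 105, 71.4, 85.2 and 72.4 CPM at 10 µg/kg and 60.4, 3.16, 6.25, 10.1 and 8.01 CPM at 30 µg/kg. The groups did not overlap, but replicate 1 at 30 µg/kg stayed close to the lower 10 µg/kg libraries. Idi1 was repressed 4.92-fold (log2 -2.30, SE 0.41, adjusted p = 3.69e-05), and its top step was 2.75 lower on the log2 scale than the step from 3 to 10 µg/kg (SE 0.66, adjusted p = 0.0157). The next enzymes fell likewise. Fdft1, squalene synthase, fell by 1.96 on the log2 scale (SE 0.30). Sqle, squalene epoxidase, fell by 1.93 (SE 0.38).

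Cyp51, lanosterol 14α-demethylase, gave an example from the sterol part of the pathway. Its levels were 229, 216, 146, 209 and 242 CPM at 10 µg/kg and 142, 18.8, 17.9, 28.5 and 32.6 CPM at 30 µg/kg, so replicate 3 at 10 µg/kg and replicate 1 at 30 µg/kg were neighbours and the groups still did not overlap. It was repressed 4.35-fold (log2 -2.12, SE 0.32, adjusted p = 2.42e-06), and the log2 difference was -3.09 without replicate 1 at 30 µg/kg. At 10 µg/kg it had not differed from vehicle past the threshold (log2 0.15, adjusted p = 0.748). Nsdhl was 109, 94.1, 65.2, 86.5 and 124 CPM at 10 µg/kg and 63.1, 7.53, 10.1, 12.4 and 11.9 CPM at 30 µg/kg. All 30 µg/kg libraries were below all 10 µg/kg libraries, by a narrow gap in replicate 1, and the repression was 4.57-fold (log2 -2.19, SE 0.32, adjusted p = 1.82e-06).

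The regulator moved with the enzymes. Srebf2, which encodes SREBP2, was 101, 90.2, 75.9, 102 and 114 CPM at 10 µg/kg and 75.1, 27.3, 26.8, 33.1 and 43.6 CPM at 30 µg/kg. The groups did not overlap, by the width of 1 library on each side, and Srebf2 was repressed 2.35-fold (log2 -1.23, SE 0.17, adjusted p = 6.71e-07).

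The sum over the 18 genes was steady below the top step, at 2282 ± 388 CPM in vehicle, 2547 ± 343 at 3 µg/kg and 2875 ± 492 at 10 µg/kg, and 878 ± 715 CPM at 30 µg/kg (SD, n = 5 each). The wide spread at 30 µg/kg came from replicate 1, whose sum was 2110 CPM, inside the range of 2070 to 3273 CPM at 10 µg/kg. The median log2 difference was -1.91 at the top step, against 0.20 from 3 to 10 µg/kg and 0.18 at 10 µg/kg against vehicle. It was -2.73 without 30 µg/kg replicate 1. Between 10 and 30 µg/kg 8 of the 18 genes did not overlap, against 11.9% of all genes tested. Without that library 18 of 18 did not, against 2655 of the 3249 called genes (81.7%). It was the 30 µg/kg library nearest to the 10 µg/kg group in 18 of the 18 genes. Leaving it out could therefore only reduce overlap, and the 18 of 18 is a description.

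The sample titles carry numbers in a lower and a higher run, and both doses have 2 libraries in the lower run and 3 in the higher. Within the lower run, where 30 µg/kg replicate 1 is 1 of 2 libraries, the median of the 18 genes was -1.33 and 0 were called, and within the higher run it was -2.54 and 18 were called. With any 1 library left out, 17 or 18 of the 18 were called, and between 8 and 14 were top-step genes.

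**Figure D3:**
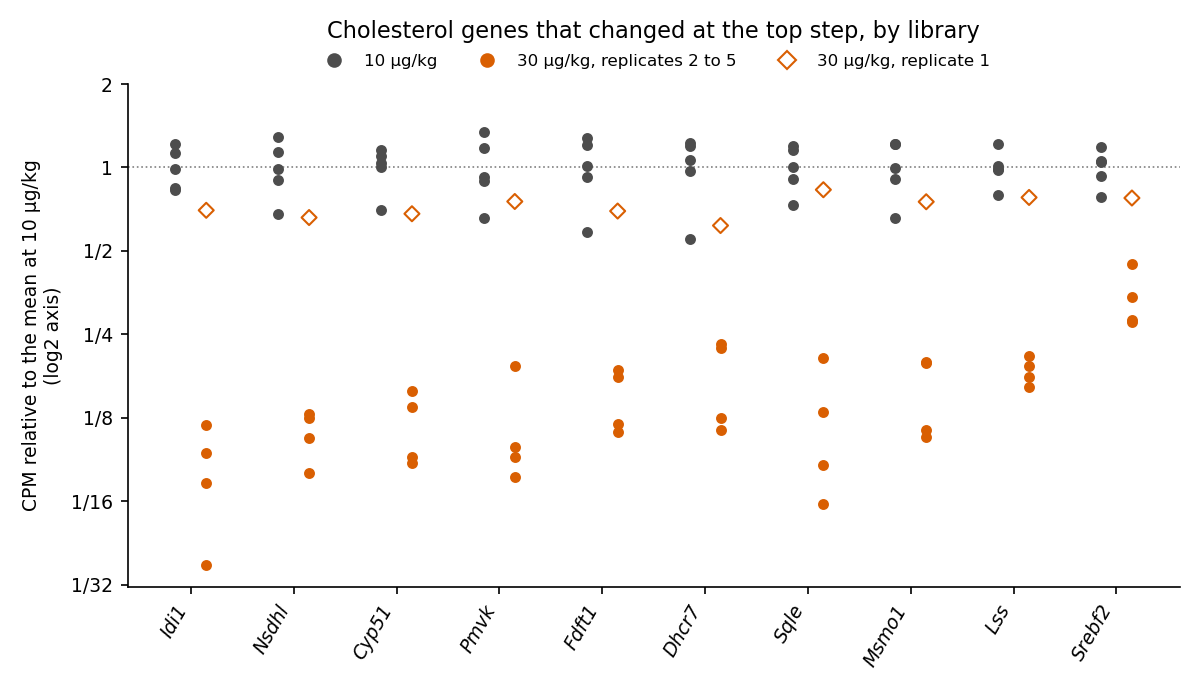
CPM of the 10 cholesterol genes that were top-step genes in each library, divided by the gene's mean at 10 µg/kg, on a log2 axis. Grey circles are the 5 libraries at 10 µg/kg, filled orange circles are replicates 2 to 5 at 30 µg/kg and open diamonds are replicate 1 at 30 µg/kg, which lies apart from the other 4 in nearly every gene and next to the lower 10 µg/kg libraries.

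Acss2, which makes acetyl-CoA from acetate for the same pathway and for fatty acid synthesis, was among the 10 largest named falls of the top-step genes. These were chosen among genes whose doses did not overlap, so lack of overlap is no finding for them or for the named rises. Acss2 was 352, 273, 197, 340.1 and 407 CPM at 10 µg/kg and 137, 23.2, 30.6, 44.4 and 46.0 CPM at 30 µg/kg. Replicate 1 was the highest of the 30 µg/kg libraries. The repression was 5.59-fold (log2 -2.48, SE 0.30, adjusted p = 7.80e-08), with a mean of 330.3 ± 69.9 CPM in vehicle (SD, n = 5).

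Nr0b2, the small heterodimer partner that represses bile acid synthesis genes, was 29.3, 75.1, 19.7, 36.9 and 81.4 CPM at 10 µg/kg and 10.3, 4.20, 2.52, 7.90 and 12.1 CPM at 30 µg/kg. The 10 µg/kg livers differed widely among themselves (6.55-fold repression, adjusted p = 8.34e-07). The top-step status of Nr0b2, which rests on the test against the step below, was lost without 10 µg/kg replicate 2 or 5 or 30 µg/kg replicate 2 or 3.

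Cyp2c38, a cytochrome P450 of the 2C family, kept its top-step status under every alternative run. It was 66.9, 73.8, 20.6, 64.2 and 63.3 CPM at 10 µg/kg and 7.41, 5.12, 2.82, 5.28 and 1.10 CPM at 30 µg/kg, 13.3-fold lower (log2 -3.74, SE 0.31, adjusted p = 3.94e-11). Here 30 µg/kg replicate 1 lay close to the other libraries of its dose. Cyp2j5, another P450, fell by 2.51 on the log2 scale (SE 0.33), Nox4, an NADPH oxidase, by 2.81 (SE 0.43), and Sntg2, a syntrophin, by 3.15 (SE 0.46).

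Fewer top-step genes rose, and their rises were mostly smaller. Afp, the fetal plasma protein α-fetoprotein, was 4.18, 2.91, 4.74, 3.89 and 2.95 CPM at 10 µg/kg and 7.92, 99.7, 48.4, 83.2 and 14.1 CPM at 30 µg/kg. The 30 µg/kg livers ranged widely among themselves (13.6-fold induction, log2 3.76, SE 0.42, adjusted p = 1.69e-08). Without 30 µg/kg replicate 1, 2 or 5 in turn it stayed called and was no longer a top-step gene. Hacd3, a dehydratase of very long chain fatty acid elongation, was 196, 175, 183, 210.2 and 209.8 CPM at 10 µg/kg and 214, 519, 579.5, 589 and 627 CPM at 30 µg/kg. The rise was 2.60-fold (log2 1.38, SE 0.14, adjusted p = 3.97e-09), and replicate 1 at 30 µg/kg was only just above the 10 µg/kg libraries. Impact, a regulator of the translation kinase GCN2, rose 3.68-fold. Nln, the peptidase neurolysin, rose 2.34-fold. Dnajc10, a disulfide reductase of the endoplasmic reticulum, rose 2.28-fold. The other named rises were Ctdspl, Ttc41, Scn8a and the gene models 1810010H24Rik and Gm12498.

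**Figure D4:**
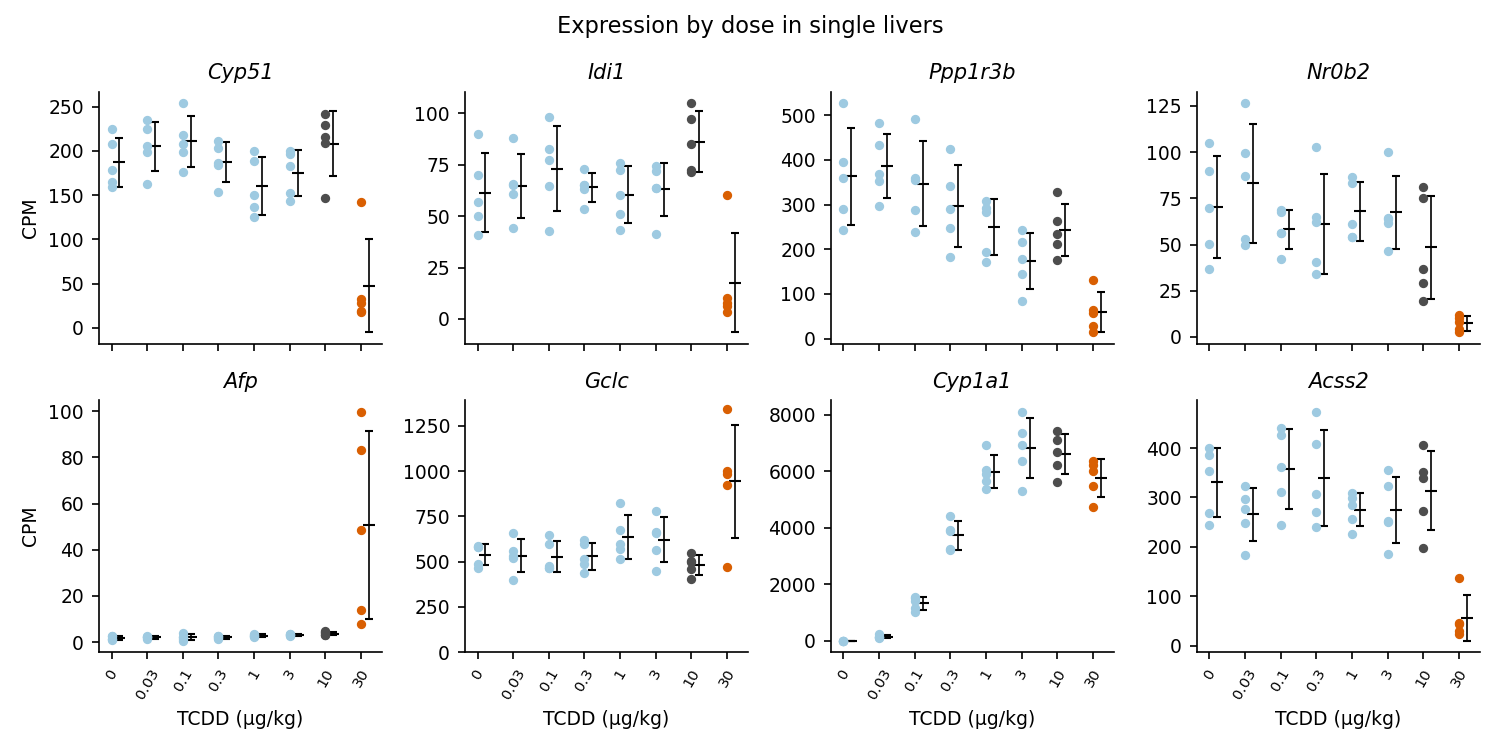
CPM of 8 genes in each liver at every dose, in µg/kg with 0 for vehicle, with short bars for the mean and vertical bars for ± 1 SD (n = 5). Cyp51, Idi1, Ppp1r3b, Nr0b2 and Acss2 drop and Afp and Gclc rise at 30 µg/kg, while Cyp1a1 levels off from 1 µg/kg on.

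The AhR target genes showed where the receptor's own readout stood at these doses. Cyp1a1, which oxidizes polycyclic aromatic compounds, was 7096, 6215, 5629, 6672 and 7424 CPM at 10 µg/kg and 6230, 4750, 5462, 6018 and 6376 CPM at 30 µg/kg. The groups overlapped and the difference was not past the threshold (log2 -0.20, SE 0.17, adjusted p = 0.401), after 1.66 ± 0.480 CPM in vehicle (SD, n = 5). Cyp1a2 likewise did not pass (log2 0.07, SE 0.13, adjusted p = 0.718). Neither did Ahrr, the AhR repressor gene (log2 -0.01, SE 0.26, adjusted p = 0.983). Of the 9 targets tested, 4 rose and 0 fell, where 10.6% of all genes tested were called higher and 10.6% lower. Cyp1b1 was 649.7, 622, 964, 632 and 442 CPM at 10 µg/kg and 1314, 1419, 2011, 1866 and 1565 CPM at 30 µg/kg, without overlap (2.47-fold induction, adjusted p = 1.32e-05). Nqo1, a quinone reductase that NRF2 also drives, rose 4.21-fold without overlap. Ugt1a7c, a glucuronosyltransferase, rose 3.87-fold. Tiparp, an ADP-ribosyltransferase that feeds back on the receptor, rose 1.69-fold, a call that was lost without 10 µg/kg replicate 4. None of the 9 was a top-step gene, a status held by 1.95% of all genes tested, so a list this short would often hold none.

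Genes of the oxidative stress factor NRF2 rose in 11 of 14 cases, with 1 fall (12 and 0 under total counts), and the median log2 difference was 1.55. Rises were called in 10.6% of all genes tested. At 10 µg/kg 7 of the 14 had already been called higher than in vehicle. Srxn1, sulfiredoxin, was 113, 94.7, 127, 123 and 116 CPM at 10 µg/kg and 176, 1213, 1443, 1072 and 1275 CPM at 30 µg/kg. The groups did not overlap, and 4 of the 5 livers at 30 µg/kg lay far above replicate 1 (9.02-fold, log2 3.17, SE 0.25, adjusted p = 1.08e-11). Its top step was also larger than the step below (log2 difference of steps 2.69, SE 0.43, adjusted p = 5.03e-04), though it had been called at 10 µg/kg already. Gclc, the catalytic subunit of the enzyme that starts glutathione synthesis, was the 1 top-step gene of the list, with 502, 546, 496, 459 and 402 CPM at 10 µg/kg and 472, 981, 1344, 921 and 1001 CPM at 30 µg/kg. Replicate 1 at 30 µg/kg lay within the 10 µg/kg range and the other 4 lay above it (1.96-fold, adjusted p = 4.16e-05). Slc7a11, the cystine transporter, had 10 to 32 counts per library at 10 µg/kg, 0.554 to 1.67 CPM, and 4.81 CPM in replicate 1 and between 24.8 and 289 CPM in the other 4 libraries at 30 µg/kg. Osgin1 was the gene of the list that fell (log2 -0.95, SE 0.29, adjusted p = 0.0109), a call that was not made under total counts.

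Genes of hepatocyte function fell widely. Of 18 plasma protein genes 16 fell and 0 rose, with a median log2 difference of -1.04. Over all genes tested 10.6% were called lower and 10.6% higher. At 10 µg/kg 10 of the 18 had already been called lower than in vehicle, with a median of -0.68. Alb, albumin, was 69172, 67293, 51893, 74041 and 83788 CPM at 10 µg/kg and 49843, 24544, 24321, 33696 and 40230 CPM at 30 µg/kg. All livers at 30 µg/kg were lower than all at 10 µg/kg, and Alb was a top-step gene (2.01-fold repression, SE of the log2 difference 0.16, adjusted p = 9.22e-06). F2, prothrombin, was the other top-step gene of the list, at 1649, 1651, 1349, 1692 and 2164 CPM and then 1297, 423, 408, 476 and 724 CPM (2.56-fold). Serpina3k, a serine protease inhibitor that had fallen at 10 µg/kg already, fell a further 8.72-fold. Apoc3 and Trf were the 2 that were not called, and the calls of Apob and Hpx were each lost without single libraries, 30 µg/kg replicate 2 among them. Fewer hepatocytes and less of an RNA per hepatocyte cannot be told apart in bulk liver.

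Bile acid synthesis genes fell in 9 of 13 cases with no rise (6 falls and 1 rise under total counts), at a median of -0.79 on the log2 scale. Calls of a fall were made in 10.6% of all genes tested. At 10 µg/kg 3 of the 13 had already been called lower than in vehicle, and the median was -0.45. Slc27a5, the ligase that activates bile acids for conjugation, was 789, 790.1, 591, 862 and 1011 CPM at 10 µg/kg and 475, 99.5, 114, 155 and 239 CPM at 30 µg/kg. It was a top-step gene without overlap (3.74-fold repression, adjusted p = 1.21e-07). Cyp27a1, the sterol 27-hydroxylase, was 521, 517, 323, 478 and 617 CPM at 10 µg/kg and 221, 215, 225, 246 and 262 CPM at 30 µg/kg, so that replicate 1 did not stand apart here (2.10-fold, adjusted p = 4.47e-09). Cyp7a1, the rate-limiting enzyme, ran from 20.1 to 113 CPM at 10 µg/kg and from 1.21 to 188 CPM at 30 µg/kg and was not called (log2 -0.31, SE 0.76, adjusted p = 0.799). Its highest value at 30 µg/kg was replicate 1, and without that library the log2 difference was -2.03 (adjusted p = 0.0300). Among 11 transporters 2 rose and 4 fell (5 and 4 under total counts), beside 10.6% of all genes tested in each direction. At 10 µg/kg 6 of the 11 had already been called lower than in vehicle and 1 higher. Slc10a1, the main bile acid importer, fell 2.76-fold and Abcb11, the bile salt export pump, 1.95-fold, while Abcc4, an exporter to blood, rose from 9.89 to 25.6 CPM at 10 µg/kg to between 42.0 and 349 CPM at 30 µg/kg (14.8-fold, adjusted p = 8.40e-11).

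Of 18 liver transcription factors and nuclear receptors, 8 fell and 0 rose (5 and 0 under total counts), with a median of -0.62. Falls were called in 10.6% of all genes tested. At 10 µg/kg 3 of the 18 had been called lower than in vehicle and 1 higher. Besides Nr0b2, Nr1i3, the receptor CAR, was a top-step gene, with 33.0 to 40.7 CPM at 10 µg/kg and 13.6 to 27.3 CPM at 30 µg/kg (1.92-fold, adjusted p = 2.59e-05). Ppara, the fatty acid receptor, fell 2.48-fold without overlap. Hnf4a, a master factor of hepatocytes, was lower in every liver at 30 µg/kg, but its 1.42-fold difference was under the threshold for a call. Foxa1, Foxa2, Foxa3, Cebpa and Prox1 were the other falls, and in Foxa2 and Prox1 the call was lost when single libraries, 30 µg/kg replicate 2 among them, were left out.

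Urea cycle and amino acid catabolism genes fell in 10 of 16 cases with 0 rises, with a median of -0.99, where 10.6% of all genes tested were called lower. At 10 µg/kg 7 of the 16 had already been called lower than in vehicle. Cps1, the first enzyme of the cycle, was 2689, 2677, 2245, 3427 and 2948 CPM at 10 µg/kg and 1803, 609, 699, 1111 and 989 CPM at 30 µg/kg (2.68-fold, adjusted p = 5.46e-08). Otc, the second, fell 3.79-fold. Ass1 and Asl, the next enzymes of the cycle, were the top-step genes of this list, at 1.97-fold and 2.64-fold, and both overlapped by replicate 1 at 30 µg/kg. Arg1, arginase, did not pass (log2 -0.06, adjusted p = 0.69). Hal, histidase, fell 5.48-fold.

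Genes of glucose handling moved in both directions. In gluconeogenesis and glycogen metabolism 5 of 10 fell and 1 rose, beside 10.6% of all genes tested in each direction. At 10 µg/kg 6 of the 10 had already been called lower than in vehicle and 1 higher. Ppp1r3b, which brings protein phosphatase 1 to glycogen, was 212, 175, 329, 235 and 264 CPM at 10 µg/kg and 131, 14.6, 28.3, 57.6 and 64.4 CPM at 30 µg/kg (4.10-fold repression, adjusted p = 1.47e-05), and it was a top-step gene. Its levels had been lower before this step, at 526, 395, 361, 243.2 and 291 CPM in vehicle and 217, 85.1, 177, 243.5 and 144 CPM at 3 µg/kg. The top-step rule does not compare 3 µg/kg with vehicle. Gbe1, the glycogen branching enzyme, was a top-step gene in the other direction, with 67.0 to 91.4 CPM at 10 µg/kg and 58.1, 137, 158, 169 and 156 CPM at 30 µg/kg, where replicate 1 lay below the 10 µg/kg range. Slc2a2, the liver glucose transporter, fell 4.22-fold, and G6pc and Pck1 were not called. Among 15 glycolytic enzymes, 4 rose and 5 fell. Pklr, Khk and Pfkl were among the falls, Khk, ketohexokinase, by 1.78 on the log2 scale, and Pkm, Aldoa, Pfkp and Hk3 rose, Pkm by 1.30. Without 30 µg/kg replicate 5 this list held 2 rises.

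Of 17 genes of the growth hormone axis and sex-biased expression 10 fell and 0 rose, where 10.6% of all genes tested were called lower. At 10 µg/kg 4 of the 17 had already been called lower than in vehicle and 1 higher. Mup20, the male pheromone darcin, was 1269, 813, 817, 1166 and 1917 CPM at 10 µg/kg and 324, 18.3, 18.5, 23.6 and 121 CPM at 30 µg/kg (11.8-fold, adjusted p = 2.23e-06), and Cyp2d9, a male-biased P450, fell 2.93-fold. Both were top-step genes. Elovl3, a male-biased fatty acid elongase, fell from 15.7 to 117 CPM at 10 µg/kg to between 0.0794 and 2.78 CPM at 30 µg/kg, after 777 ± 239 CPM in vehicle. Igf1, a hormone made in response to growth hormone, was 362, 409, 392, 363 and 377 CPM at 10 µg/kg and 402, 102, 104, 81.5 and 164 CPM at 30 µg/kg, so 4 of 5 livers were lower and replicate 1 was not (2.23-fold, adjusted p = 3.89e-04). Reads of the major urinary protein genes can be shared between near-identical copies, so the values of single Mup genes are uncertain.

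Propionyl-CoA is made from odd-chain fatty acids and some amino acids and is normally carboxylated by an enzyme of 2 subunits, Pcca and Pccb, before the cobalamin-dependent mutase Mut. Of the 9 propionyl-CoA genes tested 5 fell and 0 rose, where 10.6% of all genes tested were called lower and 10.6% higher. Pcca was 68.1, 64.5, 58.4, 63.6 and 64.0 CPM at 10 µg/kg and 55.9, 22.8, 23.6, 29.1 and 26.3 CPM at 30 µg/kg. The 10 µg/kg livers lay close together and all 30 µg/kg livers were below them (2.02-fold repression, log2 -1.02, SE 0.14, adjusted p = 9.78e-07), and Pcca was the top-step gene of the list. Pccb was 145, 142, 123, 145 and 163 CPM and then 117, 58.3, 49.4, 51.6 and 65.2 CPM (2.10-fold, adjusted p = 2.74e-07). Echs1, Adhfe1 and Aldh6a1 were the other 3 that fell, and Echs1 lost its call without 10 µg/kg replicate 5. Mut did not pass (log2 -0.23, SE 0.20, adjusted p = 0.396). Of 11 genes on a list of cobalamin uptake and processing 3 fell and 0 rose, beside the same 10.6% of all genes tested in each direction. Under total counts 1 fell, Mmab, and 2 rose, Mmadhc and Mtrr, so the direction of this list depended on the scaling. Mmab, which makes the adenosylated cofactor, fell 2.08-fold with replicate 1 inside the 10 µg/kg range, Asgr2, an asialoglycoprotein receptor subunit that takes up cobalamin with a carrier known from humans and not expressed in mice, fell by 0.75, and Mmaa fell by 0.61 on the log2 scale, and the Mmaa call was lost without 30 µg/kg replicate 2 or 3. The median of this list changed sign with the scaling, from -0.21 to 0.06 under total counts.

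Fatty acid oxidation held 1 rise and 2 falls among 17 genes, where 21.1% of all genes tested were called, with a median of 0.03. Under total counts it held 5 rises and 0 falls, with a median of 0.32. Without 30 µg/kg replicate 1 the counts were 2 and 4. Ehhadh, the bifunctional enzyme of peroxisomal oxidation, was 371, 334, 468, 500.3 and 370.4 CPM at 10 µg/kg and 337, 2729, 2526, 1329 and 686 CPM at 30 µg/kg. Replicate 1 stayed within the 10 µg/kg range and the other 4 were above it, and Ehhadh was a top-step gene (3.72-fold induction, adjusted p = 1.82e-06). Acaa2, a thiolase of mitochondrial oxidation, was one of the falls (log2 -0.69), a call that was lost without 10 µg/kg replicate 5.

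Among genes of matrix and of cell types other than hepatocytes, the count of rises differed from list to list. Of 20 collagen and matrix genes 17 rose and 1 fell, with a median of 1.37, and 18 had been called higher at 10 µg/kg than in vehicle. Col1a1, a chain of type I collagen, was 71.3, 67.9, 86.6, 56.8 and 85.9 CPM at 10 µg/kg and 114, 314, 236, 261 and 344 CPM at 30 µg/kg (3.44-fold, adjusted p = 9.89e-06), and its rise did not differ past the threshold from that of the step below (log2 difference of steps -0.03, adjusted p = 0.99). Fn1, fibronectin, which hepatocytes secrete in plasma form, was the gene that fell (2.02-fold). No matrix gene was a top-step gene, where 1.95% of all genes tested were. Of 14 stellate cell and myofibroblast markers 7 rose, and their summed level was 231 to 273 CPM at 10 µg/kg and 275 to 663 CPM at 30 µg/kg. Acta2, smooth muscle actin, was at most 7.28 CPM at 10 µg/kg and then 8.29, 45.5, 32.1, 39.4 and 51.4 CPM (6.12-fold, adjusted p = 1.02e-04). Among 13 sinusoidal endothelial markers 2 rose, Vwf and Cd34 (5 under total counts), where 10.6% of all genes tested were called higher. The Vwf call was lost without any of 5 libraries (10 µg/kg replicate 1 or 5, or 30 µg/kg replicate 2, 3 or 5).

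Of 13 cholangiocyte and ductular markers 8 rose and 0 fell, where 10.6% of all genes tested were called higher. Without 30 µg/kg replicate 1, 9 rose and 2 fell. Their sum was 80.5 to 131 CPM at 10 µg/kg and 150 to 473 CPM at 30 µg/kg. Prom1, a progenitor and duct membrane protein, was 1.61 to 10.3 CPM at 10 µg/kg and 32.4, 53.3, 38.4, 84.7 and 45.7 CPM at 30 µg/kg, with replicate 1 no longer near the lower dose (9.22-fold, adjusted p = 3.67e-08). Krt19, a duct keratin, was 0.692 to 2.78 CPM and then 1.76, 38.9, 4.00, 6.63 and 5.27 CPM, so a single liver, replicate 2, was much higher than the rest. Sox9, a factor that defines the lineage, was not called (log2 -0.65, adjusted p = 0.0728), and it was called lower without 30 µg/kg replicate 1 (log2 -0.99, adjusted p = 0.00358).

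Lipid-associated macrophage markers rose in 11 of 14 cases, with a median of 1.90, where 10.6% of all genes tested were called higher. At 10 µg/kg 9 of the 14 had already been called higher than in vehicle and 1 lower. Gpnmb, a glycoprotein of lipid-laden macrophages, was 18.0 to 35.6 CPM at 10 µg/kg and 45.4, 417, 369, 379 and 332 CPM at 30 µg/kg (12.2-fold, adjusted p = 2.87e-08), after 0.270 ± 0.379 CPM in vehicle. Ctsd, the lysosomal protease cathepsin D, was the top-step gene of the list (2.25-fold). Of 10 resident Kupffer cell markers 5 rose, Marco most (6.17-fold), and the defining markers Clec4f and Timd4 did not pass. Neutrophil markers rose in 6 of 7 tested, to a sum of 19.5 to 95.4 CPM from 10.5 to 16.2 CPM. At 10 µg/kg 4 of the 7 had already been called higher than in vehicle. The count of 6 fell to as few as 4 with 1 library left out and 2 under the other alternatives. In the lower run of title numbers alone it was 0. Mmp8, neutrophil collagenase, was 0 to 1.46 CPM and then 1.67, 33.9, 25.1, 26.1 and 23.9 CPM, while Ly6g, Ngp, Camp, Ltf and Elane were too low to be tested. Of 12 lymphocyte and plasma cell markers edgeR called 0 (1 under total counts) and DESeq2 called 0, and 1 had an unadjusted edgeR p under 0.05. The part of a change in cell numbers in any of the results above was not tested.

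Cell cycle and DNA replication genes rose in 9 of 22 cases (18 of 22 under total counts), among them Ccne1, a cyclin of the entry into S phase, from 0.877 to 2.56 CPM at 10 µg/kg to 3.85 to 4.91 CPM at 30 µg/kg. This list had risen one step earlier, with 17 of 22 called from 3 to 10 µg/kg, and 4 members, Ccnd1, Mki67, Plk1 and Rrm2, had a top step below the step before it (Ccnd1 log2 difference of steps -2.18, adjusted p = 0.0134). The count of 9 fell to 4 without 10 µg/kg replicate 1, to 5 without 10 µg/kg replicate 4 or 30 µg/kg replicate 2 or 3, and to 2 without 30 µg/kg replicate 4. Of 17 cytokines and chemokines 7 rose and 0 fell, with a median of 0.70. At 10 µg/kg 13 of the 17 had already been called higher than in vehicle, with a median of 2.03. The count of 7 fell to as few as 3 under the alternatives of scaling, filter, covariate or method. In the lower run of title numbers alone it was 0. Of 18 genes of the integrated stress and unfolded protein response 1 rose, Psat1, and of 14 p53 target and growth arrest genes 1 rose, Gadd45b (5.12-fold), and 1 fell, Bbc3 (2.39-fold). Over all genes tested 10.6% were called higher and 10.6% lower. Without 30 µg/kg replicate 1, 5 of the p53 list rose, and under total counts 7 of the p53 list and 3 of the stress response list rose. Of 9 fetal and imprinted growth genes 4 rose. Besides Afp these were H19, Grb10 and Peg3, and Peg3 was 114 and 52.9 CPM in replicates 2 and 3 at 30 µg/kg and at most 7.74 CPM in the other 3. Of 18 keratin and junction genes 7 rose and 3 fell. Cldn1, a tight junction claudin, fell 4.04-fold without overlap, and Anxa5, annexin A5, was the top-step gene (1.75-fold induction). Of 13 mitochondrial-genome genes 2 rose, mt-Co2 and mt-Co3, beside 10.6% of all genes tested. Without 30 µg/kg replicate 4, 0 of the 13 rose, and under total counts 4 did.

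**Figure D5:**
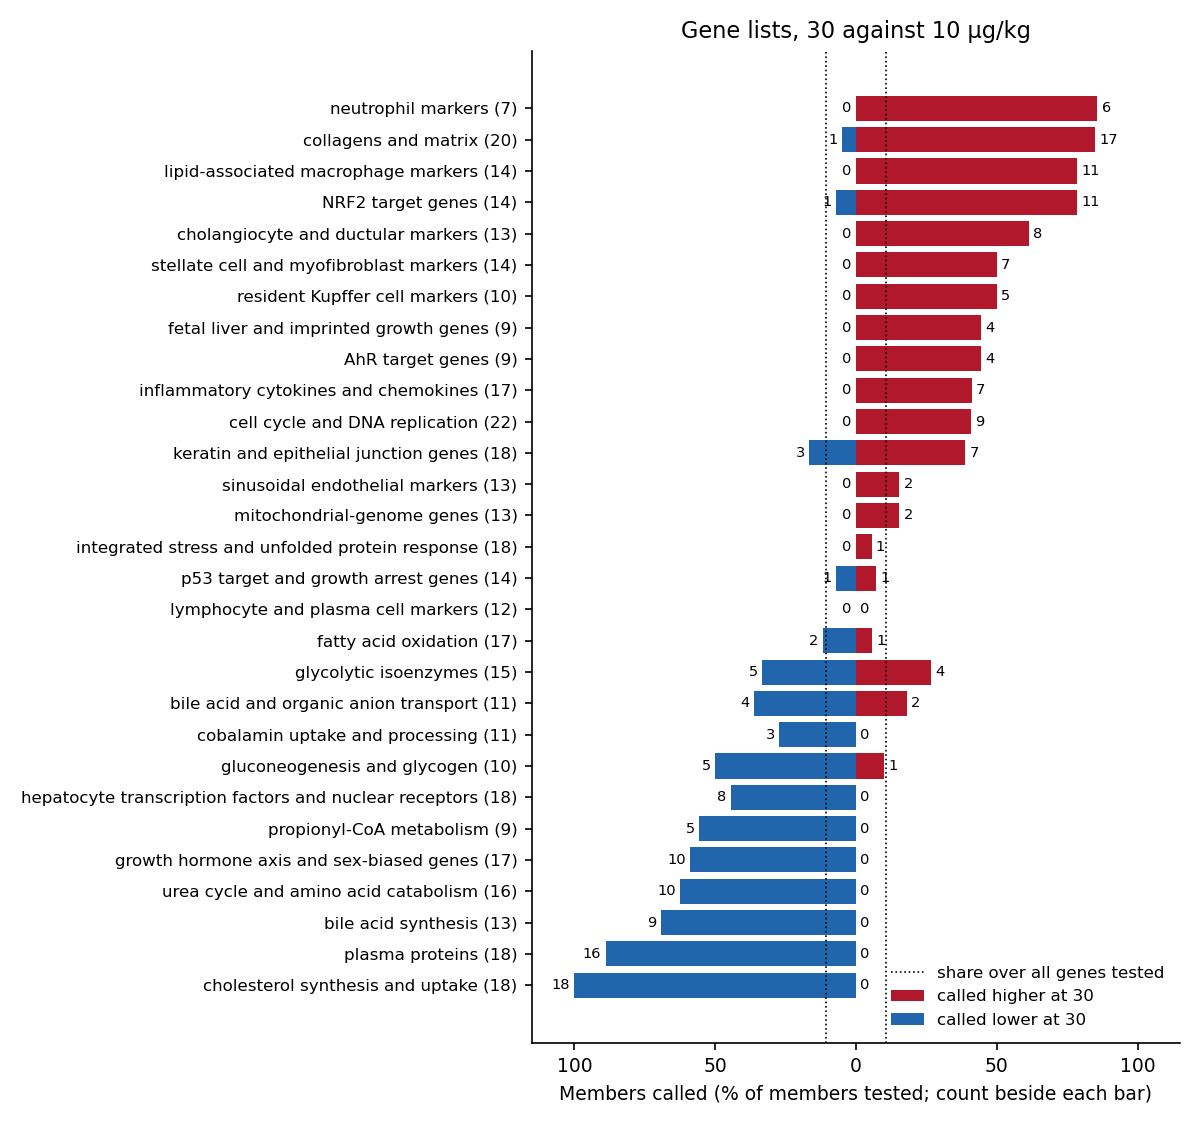
Share of the tested members of each list, in percent, called higher (red, to the right) or lower (blue, to the left) at 30 than at 10 µg/kg, with the number tested in brackets and the number called beside each bar. Dotted lines mark the 10.6% of all genes tested that were called in each direction, and cholesterol synthesis and uptake lies farthest to the left with 18 of 18.

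The largest changes of all began or ended near the limit of counting. Wnt10a, a Wnt ligand, had 0 to 3 counts in each 10 µg/kg library and was 3.80, 46.3, 39.2, 81.0 and 37.1 CPM at 30 µg/kg, and Cdh22, a cadherin, had 0 to 5 counts and then 7.04, 27.5, 29.4, 32.7 and 25.8 CPM. No fold is given for these, since the fitted value depends on the count added to zeros. Gm42711, Sult2a1, Tgm3, Areg and Sult2a2 rose from similarly few counts. DESeq2 did not call Areg (adjusted p = 0.240) or Cdh22 (adjusted p = 0.0544). Cbr3, a carbonyl reductase, started from measurable levels of 1.61 to 3.89 CPM and reached 11.6, 199, 155, 188 and 175 CPM (49.3-fold, adjusted p = 6.00e-12), and Ly6d, a surface protein of the Ly6 family, rose 42.8-fold. Replicate 1 was the lowest 30 µg/kg library in each of these except Sult2a1 and Sult2a2. Lack of overlap between the doses was part of the choice of these genes.

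Among the largest falls were Hao1, a peroxisomal hydroxyacid oxidase, at 2.92 to 43.0 CPM and then 0 to 0.555 CPM, and Sult2a8, a bile acid sulfotransferase, at 41.3 to 123 CPM and then 2.08 to 9.49 CPM (17.6-fold, adjusted p = 9.91e-12). Slc22a28, an organic anion transporter gene, was 3.54 to 14.3 CPM and then 2.31 CPM in replicate 1 and at most 0.119 CPM in the other 4. Of the 10 named falls, 4 were major urinary protein genes, Mup3, Mup7, Mup11 and Mup12, and 1 was Serpina1e, from a family of near-identical copies. Neither the Mup and Serpina1 genes nor the gene model Gm3839 can be separated with confidence from their copies, and overlapping or antisense genes cannot be told apart, because the libraries keep no strand.

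Of the 3249 called genes, 116 went in the direction opposite to their own call at 10 µg/kg against vehicle, 69 of them higher at 10 µg/kg than in vehicle and lower at 30, and 47 lower at 10 µg/kg and higher at 30. Both calls use the same 5 libraries at 10 µg/kg, whose own deviations push the 2 differences in opposite directions, so this count is a description. Abcg5, a sterol exporter of the canalicular membrane, was of the second kind. It was 72.6 ± 8.61 CPM in vehicle and 40.8 ± 8.16 CPM at 10 µg/kg (SD, n = 5 each), and 28.5, 125, 124, 59.6 and 73.2 CPM at 30 µg/kg (2.01-fold above 10 µg/kg, adjusted p = 7.03e-04). Cd9, a tetraspanin, followed Abcg5, with 17.6 ± 2.19, 9.90 ± 0.916 and 34.0 ± 16.6 CPM in vehicle and at 10 and 30 µg/kg, and replicate 1 at 30 µg/kg was again the low value, at 8.24 CPM.

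At the level of whole libraries, the percent of gene counts in the 10 genes with most counts was 20.5 ± 1.51% at 10 µg/kg and 17.9 ± 1.45% at 30 µg/kg (SD, n = 5 each, exact permutation test, 2-sided, p = 0.0317, Benjamini-Hochberg over 3 values 0.0317), and without any 1 of 6 libraries (10 µg/kg replicate 1, 2, 4 or 5, or 30 µg/kg replicate 2 or 3) p was 0.0635. The number of genes with at least 10 counts was 14109 ± 479 and 14855 ± 260 (exact permutation p = 0.0238, adjusted 0.0317). Mitochondrial-genome genes held 5.49 ± 0.188% and 6.31 ± 0.616% (exact permutation p = 0.0238, adjusted 0.0317). These percentages are shares of total counts. On the TMM scale the direction was the opposite, with a sum over the 13 mitochondrial-genome genes tested of 51477 ± 5980 CPM at 10 µg/kg and 48424 ± 3611 CPM at 30 µg/kg (SD, n = 5 each), whose ranges overlapped and which was not tested, while the median log2 difference of the 13 was 0.18. With 5 against 5 the smallest p this test allows is 0.00794.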

How the data were processed

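Liver RNA of 40 mice was sequenced, and the read counts per gene deposited by the authors for each library were used as deposited. Per the labels, the submitters' processing notes name FastQC 0.11.7, Trimmomatic 0.39 and STAR 2.7.3a and the builds GRCm39 and mm10, without saying which step used which. The unstranded column was read, since the first-strand share was 50.0% to 50.3%, and the rows for reads outside genes were left out, so that 71.3% to 80.8% of reads entered library sizes. A deposited table of normalized log2 values, made by the authors by a method not given in the sources used here, served 1 alternative with limma 3.58.1.

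Counts of all 40 libraries were fitted with edgeR 4.0.16 in R 4.3.3, with 1 mean per dose, TMM scaling and genes kept by filterByExpr (minimum count 10, minimum total 15), and quasi-likelihood tests were adjusted by Benjamini-Hochberg over 15373 genes. Adjusted p-values in the report are from this fit. A call needed an adjusted p under 0.05 and a fold of at least 1.5. The scripts were tested on simulated data. Named genes were the 10 largest rises and falls that had a symbol, averaged 100 counts or more at the dose where they were higher, and did not overlap, among called and among top-step genes, and the members of 29 lists. Members and lists were chosen with earlier results of these data known. DESeq2 1.42.0, other scalings, filters, covariates for the title numbers, each run of title numbers alone and the omission of each library were the alternatives. Symbols were found for 52083 of 55359 identifiers. Replicate pairs within these doses differed by more than sampling noise, with chi-square over degrees of freedom of 17.5 or more. Some genes that these rules named are not reported here.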

Additional observations from a re-analysis of the deposited data

Results flagged for a closer look

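Among 82 sets of 5 values examined (log2 CPM of a named gene at 1 dose), 14 held a library far from the other 4, where chance gives about 1 in 20 for a single set. The sets reuse the same 10 libraries and are not independent, so this count is a description and no excess over chance was tested. Of the 14, 7 were 30 µg/kg replicate 1. It was low in Wnt10a (1.97, others 5.22 to 6.34), Cdh22 (2.84, others 4.69 to 5.04), Cbr3 (3.55, others 7.27 to 7.64), Hacd3 (7.74, others 9.02 to 9.29) and Dnajc10 (4.98, others 5.95 to 6.33). It was high in Mup7 (1.39, others -3.15 to -2.35) and Slc22a28 (1.28, others -3.15 to -2.11). Each of these values lay on the side of the 10 µg/kg group.

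At 10 µg/kg, replicate 3 was high in Slc7a11 (0.83, others -0.59 to -0.19) and low in Elovl3 (3.99, others 6.20 to 6.87) and Cyp2c38 (4.37, others 5.99 to 6.21), on the side of the 30 µg/kg group. Replicate 1 was high in Tgm3 (-1.01, others -3.15 to -2.60), a gene with at most 8 counts at this dose. Replicate 4 was low in Scn8a (-2.12, others -0.26 to 0.27). Replicate 5 was low in Nln (4.36, others 4.80 to 4.89) and high in Sntg2 (3.33, others 2.60 to 2.80).

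The step from 10 to 30 µg/kg was compared between the lower and the higher run of title numbers. Sftpa1, a surfactant protein gene, was the 1 gene with an adjusted p under 0.05 (edgeR, adjusted p = 0.0131), with a step of -0.49 in the lower run and -7.10 in the higher run, a log2 difference of -6.61. The unadjusted p was under 0.05 in 827 genes.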

How the results depend on the processing

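No paired analysis was possible because replicates were numbered by accession only, which links no mouse to another. With single libraries left out, 2689 to 4116 genes were called (1215 to 2012 higher, 1423 to 2104 lower), 95 to 882 were top-step genes, and 204 to 1714 differed from the step below. The lower run of title numbers alone, with 2 livers per dose, gave 506 calls (151 higher, 355 lower), 2 top-step genes and 6 that differed from the step below. Without the fold threshold 4883 genes were called, 2600 of them lower. Total counts gave 3163 higher and 971 lower. Run and position as covariates gave 546 top-step genes and 1158 that differed from the step below, and a comparison with the step from 1 to 3 µg/kg, which shares no library with the top step, gave 1007 and 2355. The share of the top 10 genes differed by -2.41 percentage points in the lower run (exact permutation p = 0.333) and -2.71 in the higher (p = 0.3, exact), and by -3.09 to -2.13 with single libraries left out. The mitochondrial share differed by 0.451 and 1.07 points in the runs (exact permutation p = 0.333 and 0.1) and by 0.66 to 1.03 with libraries left out, and the genes with at least 10 counts by 224.5 and 1093 (exact permutation p = 0.667 and 0.1) and by 615.5 to 902.25. With 2 or 3 livers a dose these tests cannot pass 0.05. For the largest named rises and falls, 881 values under the alternatives stayed on the same side of the threshold, 19 did not pass it and 0 reversed. Those genes were chosen for size and lack of overlap, and the other list members are not in this count. Of the list counts under the alternatives, 1248 were classed as the same and 144 as moved. The first class is not identity, since 4134 calls under total counts against 3249 in the main fit were also classed as the same. The causes were not tested.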
